A study of Mus musculus with 12 samples.

Results

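The transcripts described here are those of the red blood cell in the prefrontal cortex (PFC): 2 alpha-globin genes (Hba-a1 and Hba-a2), 2 beta-globin genes (Hbb-bs and Hbb-bt) and Alas2. They were chosen by name, and all 5 are among the 41388 genes of the count table. RNA was sequenced from the PFC of male Swiss Webster mice aged 10 weeks, with 4 libraries from conventionally raised mice (CON), 4 from germ-free mice (GF) raised in isolators without microbes, and 4 from germ-free mice that were taken out of the isolators on postnatal day 21 and colonized by microbes of the standard animal unit (exGF). No group carried an engineered allele or received a drug, and all groups ate the same autoclaved diet. Each library was made from polyA-selected RNA pooled from 2 to 3 animals, and the libraries of a group therefore vary as pools of mice do. The tissue was dissected by hand, and no rinsing of the vessels with saline or fixative is described for the animals whose RNA was sequenced. Counts on genes ran from 13280926 in GF1, the shallowest library, to 29134760 in CON3. The exGF libraries are called GFR1 to GFR4 after their columns, with numbers that name no particular sample, and GFR1 and GFR2 stood apart by their low globin level, so results that rest on them are given with and without them.

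Haemoglobin is the oxygen carrier of red blood cells and is built from a pair of alpha chains and a pair of beta chains, each holding a haem group. Alas2 is the erythroid form of 5-aminolevulinate synthase, the enzyme that starts haem synthesis, while its relative Alas1 serves other tissues. Mammalian red cells lose their nucleus and make no new RNA, but young red cells (reticulocytes) in the circulation still carry globin mRNA. Globin mRNA in a brain sample can come from blood in its vessels, and globin transcripts have also been described in neurons and glia. In bulk RNA, fewer cells of a type and less RNA per cell cannot be told apart.

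The 4 globin genes lie as neighbouring pairs. In GRCm38, Hba-a1 (ENSMUSG00000069919) is at chr11:32283511-32284465 on the + strand and Hba-a2 (ENSMUSG00000069917) at chr11:32296489-32297298 on the + strand. Hbb-bt (ENSMUSG00000073940) is at chr7:103812524-103813996 and Hbb-bs (ENSMUSG00000052305) at chr7:103826534-103828096, both on the - strand. Each of these genes has 3 exons in the GENCODE transcript used here. Alas2 (ENSMUSG00000025270), with 11 exons, is at chrX:150547375-150570638 on the + strand.

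The members of each pair have almost the same coding sequence, which limits how their counts can be read. The last 120 coding bases before the stop codon of each gene (exonic, coding strand, 5′ to 3′, from the GENCODE transcript sequences) show this, and the capital marks the base that differs within a pair.
Hba-a1: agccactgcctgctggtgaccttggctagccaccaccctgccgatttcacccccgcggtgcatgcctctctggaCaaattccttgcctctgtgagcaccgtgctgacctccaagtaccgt
Hba-a2: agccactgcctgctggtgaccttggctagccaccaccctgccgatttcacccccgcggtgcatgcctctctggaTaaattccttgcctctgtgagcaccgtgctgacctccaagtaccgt
Hbb-bs: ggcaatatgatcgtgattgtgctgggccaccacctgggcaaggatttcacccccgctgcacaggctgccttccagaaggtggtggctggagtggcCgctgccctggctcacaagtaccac
Hbb-bt: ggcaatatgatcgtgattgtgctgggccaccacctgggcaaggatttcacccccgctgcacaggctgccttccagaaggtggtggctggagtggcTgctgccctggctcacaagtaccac

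Over their whole coding sequence, counted from 1 at the A of the start codon and without the stop codon, Hba-a1 and Hba-a2 differed at 1 of 426 bases (C381T) and Hbb-bs and Hbb-bt at 1 of 441 bases (C417T). The first gene's base comes first in these substitutions. Both pairs were thus 99.77% identical in coding sequence. Of all 31-base words in the exons of Hba-a1, 75.5% also occurred in another gene. The share was 92.6% for Hba-a2, which left it 47 words of its own. It was 54.4% for Hbb-bs and 59.4% for Hbb-bt, and nearly all of the shared words lay in the other gene of the pair. At a word length of 100 bases, the length of a read, the shares were 63.3%, 79.5%, 49.7% and 54.8% for Hba-a1, Hba-a2, Hbb-bs and Hbb-bt. Because only read pairs aligned to a single place were counted, pairs that lie wholly in shared stretches are missing from these counts, and levels of the globin genes are lower bounds that cannot be compared with other genes without this limit. Pairs aligned to several places were 13.0% to 19.2% of each library.

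The promoters of the alpha pair were identical over a long run, while those of the beta pair shared only short identical runs. In the 300 bases around the RefSeq start of each gene (GRCm38.p6), the longest run identical between Hba-a1 and Hba-a2 was 297 bases, against 14 bases between Hbb-bs and Hbb-bt. Any single difference ends such a run, so its length does not measure likeness over the whole promoter. Both strands of the 150 bases before the start were searched for short motifs. The letters CACCC occurred in all 5 promoters, Alas2 included, and in 37.4% of 32851 mouse promoters of this length. The CCAAT box occurred in all 4 globin promoters and in 24.5% of mouse promoters. The TATA motif, spelled TATAA here, occurred in the same 4 and in 14.2% of mouse promoters. A GATA motif, spelled GATAA here, occurred in the Alas2 promoter alone among the members and in 13.3% of mouse promoters. These are matches of letters, not sites shown to be bound.

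Hbb-bs gave the most counts of the group, 21396 over the 12 libraries, followed by Hba-a1 with 13803, Hbb-bt with 1656 and Alas2 with 893. Hba-a2 had 2 counts in all, both in CON2, and was listed at 0 in the other 11 libraries. Of its 100-base words 116 occur in no other gene, against 261 for Hba-a1, and why it gave so few counts was not tested. Per kilobase of exon, the mean level in CPM (counts per 1000000 counts on genes, scaled by TMM over the 12 libraries) was 99.2 for Hbb-bs, 61.7 for Hba-a1, 8.69 for Hbb-bt and 1.37 for Alas2. On this scale Hbb-bs ranked 378 and Hba-a1 665 of 40254 genes with a length, Hbb-bt 5033 and Alas2 11437. All members together took only 0.00760% to 0.0200% of the counts on genes in a library.

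**Figure D1:**
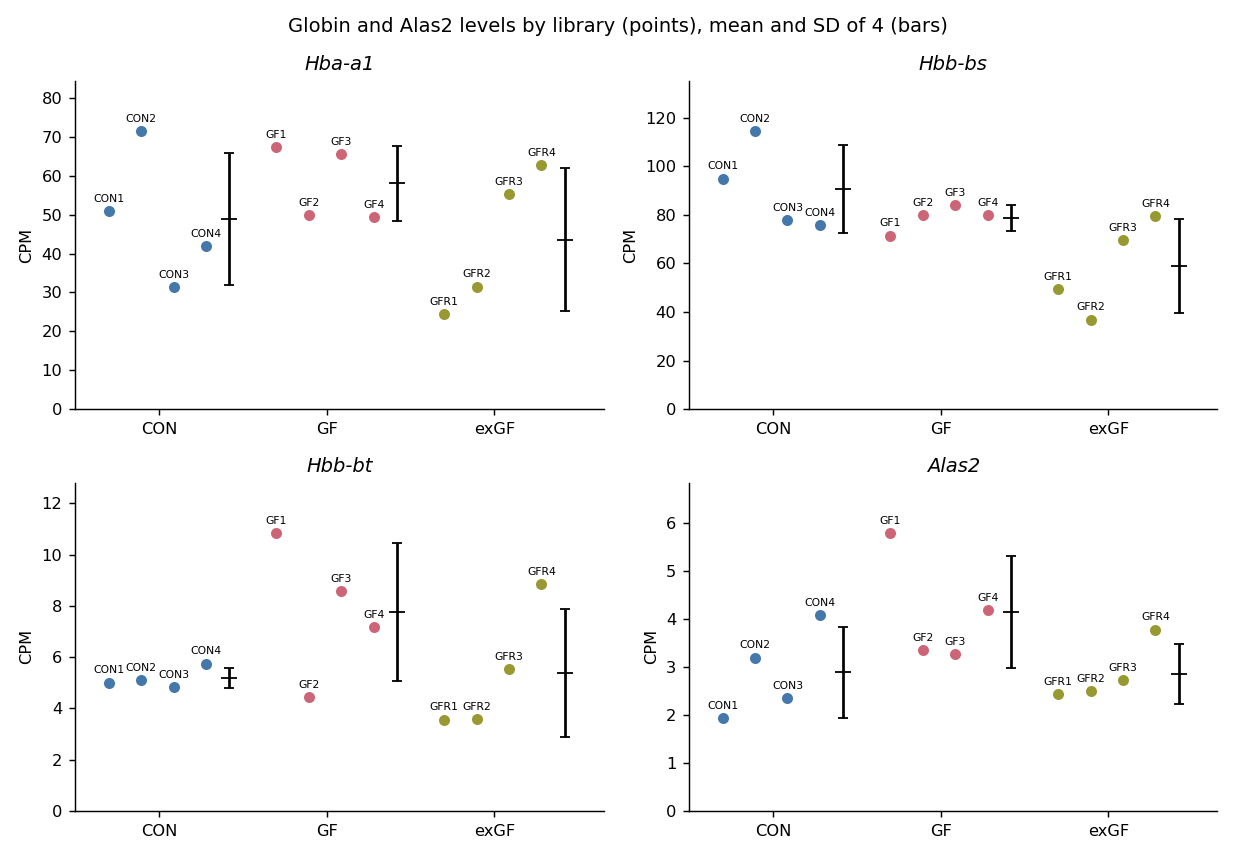
Level of Hba-a1, Hbb-bs, Hbb-bt and Alas2 in each library, in CPM on a linear axis starting at 0. Points are single libraries (pools of 2 to 3 animals) of CON, GF and exGF, and the bar beside each group is the mean with the SD of its 4 libraries. GFR1 and GFR2 are the lowest libraries for Hbb-bs and Hbb-bt, and GF1 is the highest for Hbb-bt and Alas2.

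Hba-a1, the alpha chain that could be measured, stood at 50.8, 71.5, 31.3 and 41.95 CPM in the 4 CON libraries. In the GF libraries it was 67.3, 49.9, 65.5 and 49.4 CPM, and in the exGF libraries GFR1 to GFR4 it was 24.5, 31.5, 55.3 and 62.7 CPM. The groups overlapped throughout: CON2 was the highest library of all, and GFR1 the lowest. Group means were 48.9 ± 17.0 CPM in CON and 58.0 ± 9.67 in GF, and 43.5 ± 18.4 in exGF (SD, n = 4).

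Hbb-bs, the more abundant beta chain, stood at 94.9, 114.5, 77.9 and 75.7 CPM in CON and at 71.4, 79.8, 84.0 and 79.8 CPM in GF. In exGF it was 49.6, 36.9, 69.7 and 79.6 CPM. The GF libraries lay close together, CON1 and CON2 were higher than every GF library, and GFR1 and GFR2 were lower than all other libraries. The means were 90.7 ± 18.0 CPM in CON and 78.8 ± 5.28 in GF, and 58.9 ± 19.3 in exGF (SD, n = 4).

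Hbb-bt, the less abundant beta chain, stood at 5.002, 5.116, 4.84 and 5.75 CPM in CON. In GF it was 10.9, 4.43, 8.59 and 7.16 CPM, and in exGF 3.56, 3.58, 5.54 and 8.85 CPM. In GF, 3 libraries lay above all of CON and GF2 lay below all of CON, so the groups overlapped. Means were 5.18 ± 0.398 CPM in CON and 7.76 ± 2.69 in GF, and 5.38 ± 2.49 in exGF (SD, n = 4).

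Alas2 had 47 to 111 counts per library. Its level was 1.93, 3.20, 2.35 and 4.07 CPM in CON, 5.80, 3.36, 3.28 and 4.18 CPM in GF, and 2.44, 2.50, 2.72 and 3.78 CPM in exGF. GF1 was the highest library and CON1 the lowest, and every pair of groups overlapped. Means were 2.89 ± 0.951 CPM in CON and 4.15 ± 1.17 in GF, and 2.86 ± 0.623 in exGF (SD, n = 4). The Alas2 gene lies within the span of Apex2 (chrX:150519519-150589868, - strand), a DNA repair endonuclease, and counting ignored strand, so reads of this pair cannot be fully told apart. Apex2 had 44 to 105 counts per library, and 11.8% of the 31-base words of Alas2 exons occur in Apex2 exons.

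The spread between pools of one group was far above counting error for the abundant members. For Hbb-bs the coefficient of variation over the 4 libraries was 19.8% in CON, 6.70% in GF and 32.8% in exGF, where counting alone gives 2.09% to 2.71%. For Hba-a1 it was 34.9%, 16.7% and 42.3% in CON, GF and exGF, against 2.92% to 3.26% from counting. For Hbb-bt it was 7.68% in CON, below the 8.69% that counting gives, but 34.7% in GF and 46.2% in exGF. The ratio of the highest to the lowest CPM over the 12 libraries was 2.92 for Hba-a1, 3.11 for Hbb-bs, 3.05 for Hbb-bt and 3.01 for Alas2. Biological variability as estimated by edgeR placed Hba-a1 above 78.9% of genes tested in GF against CON and above 93.2% in exGF against CON. Hbb-bs lay near the middle in GF against CON, above 49.5% of genes, and above 80.9% in exGF against CON.

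Hba-a1 was correlated with each beta chain over the 12 libraries by Pearson's r, but neither relation passed without GFR1 and GFR2. Over the 12 libraries, log2 CPM of Hba-a1 and Hbb-bs had a Pearson r of 0.70 (permutation test, two-sided, p = 0.0108, adjusted p = 0.0215 over 6 relations between members). Spearman's rho of this pair was 0.52 and did not pass (permutation test, p = 0.0824, adjusted p = 0.165). Without CON3 and GFR1, the libraries farthest from the median of Hba-a1, r was 0.76, and it was 0.78 after the group means had been subtracted. Without GFR1 and GFR2, a choice made after the data had been seen, r fell to 0.32 over 10 libraries (permutation test, p = 0.365, adjusted p = 0.365), so this relation rests on these libraries. Hba-a1 and Hbb-bt gave r = 0.74 and rho = 0.68 (permutation test, p = 0.00657 and 0.0173, adjusted p = 0.0197 and 0.0519), and 0.67 without CON3 and GFR1. Its r was 0.53 without GFR1 and GFR2 (permutation test, p = 0.110, adjusted p = 0.331). All of these values share the library scaling.

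Over the 12 libraries the relation between the 2 beta chains did not pass. Hbb-bs and Hbb-bt had r = 0.43 and rho = 0.27 (permutation test, p = 0.167 and 0.390, adjusted p = 0.200 and 0.468), and r was 0.51 after the group means had been subtracted but -0.33 once GFR1 and GFR2 were left out. The difference between the correlations was not tested. Alas2 went with Hbb-bt, at r = 0.74 and rho = 0.73 (permutation test, p = 0.00594 and 0.00960, adjusted p = 0.0197 and 0.0519), and r = 0.54 without GF1 and GFR4. Its r was 0.70 without GFR1 and GFR2 (permutation test, p = 0.0241, adjusted p = 0.145). With Hba-a1 it had r = 0.51 and rho = 0.40 (permutation test, p = 0.0897 and 0.204, adjusted p = 0.135 and 0.306), and r = 0.35 without CON3 and GFR1. With Hbb-bs it had r = 0.17 and rho = 0.05 (permutation test, p = 0.591 and 0.885, adjusted p = 0.591 and 0.885), and r = -0.36 without GFR1 and GFR2.

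**Figure D2:**
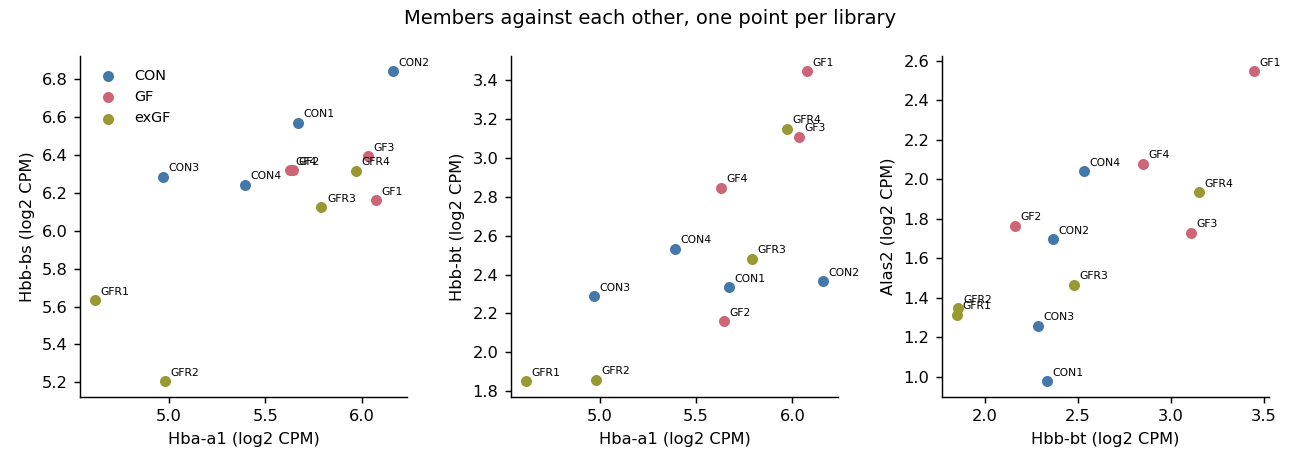
Members plotted against each other, with log2 CPM on both axes and 1 point per library, coloured by group. GFR1 and GFR2 sit at the low end of Hbb-bs and Hbb-bt, and CON2, with the highest Hba-a1 and Hbb-bs, is not among the highest for Hbb-bt. In the plot of Hbb-bt and Alas2, GF1 is highest on both axes.

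The make-up of the globin counts differed between pools by more than counting error. The share of Hbb-bt in the counts of both beta chains was 5.01%, 4.28%, 5.85% and 7.06% in the CON libraries. In the GF libraries it was 13.2%, 5.26%, 9.28% and 8.23%, and in GFR1 to GFR4 it was 6.70%, 8.86%, 7.36% and 10.0%. The 95% Wilson interval of GF1, 11.3% to 15.3%, lay above that of every CON library, of which the highest was CON4 with 6.05% to 8.23%. These intervals cover counting error only. The mean share was 5.55% ± 1.20 for CON, 8.99% ± 3.28 for GF and 8.23% ± 1.49 for exGF (SD, n = 4), and the ranges overlapped. These shares were computed after the levels had been seen and are given with no test. Reads were assigned by the GRCm38 reference, and the beta-globin sequences carried by the Swiss Webster mice were not examined.

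The share of Hba-a1 among the counts of Hba-a1, Hbb-bs and Hbb-bt ran from 27.4% to 37.4% in CON, from 36.2% to 45.0% in GF and from 31.5% to 43.8% in exGF. CON3 had the lowest share and GF1 the highest. Since alpha and beta genes lose different parts of their reads to the uniqueness rule, this share is a measure to compare libraries with, not the ratio of alpha to beta mRNA.

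**Figure D3:**
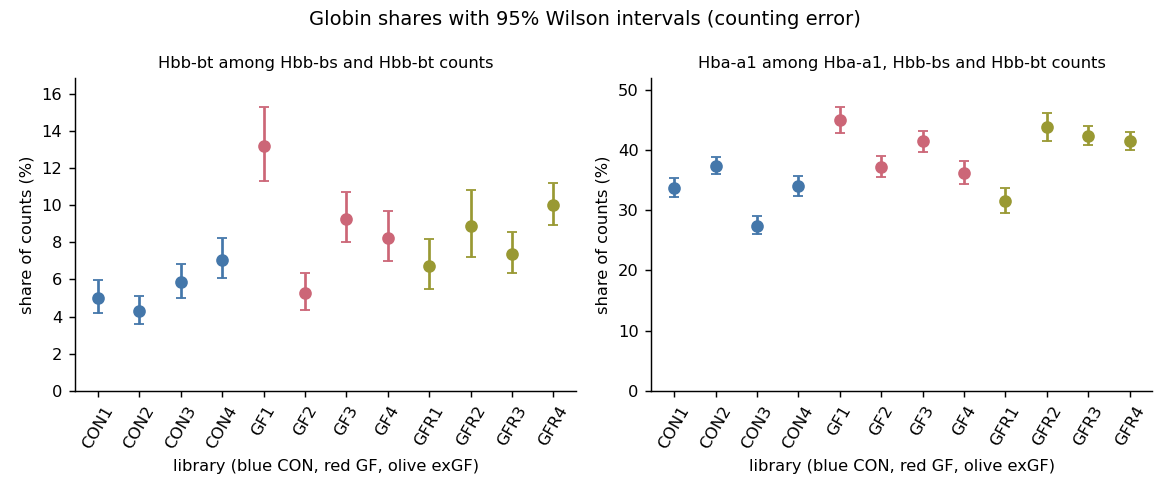
Share of Hbb-bt in the counts of Hbb-bs and Hbb-bt, and share of Hba-a1 in the counts of the 3 globins measured, in percent for each library. Bars are 95% Wilson intervals, which cover counting error only. The Hbb-bt share is 13.2% in GF1 and between 4.28% and 10.0% elsewhere.

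The first comparison asks whether PFC of mice raised without microbes differs from that of conventional mice. None of the 4 members tested was called in GF against CON (edgeR's quasi-likelihood test, Benjamini-Hochberg adjusted p under 0.1), beside 39 of 15542 genes or 0.251% of all genes tested. At an unadjusted p under 0.05, 1 member and 1350 genes passed. DESeq2 and limma-voom called no member either. Hbb-bt had a log2 fold change of 0.57 (SE 0.22, adjusted p = 0.457), and was above all CON libraries in 3 of 4 GF libraries. Alas2 had 0.51 (SE 0.26, adjusted p = 0.613), Hba-a1 0.25 (SE 0.20, adjusted p = 0.765) and Hbb-bs -0.20 (SE 0.12, adjusted p = 0.667). The median over the 4 members was 0.38, where that over all genes tested was 0.0069. With 1 library left out, the value of Hbb-bt ran from 0.36 (without GF1) to 0.77 (without GF2), and that of Alas2 from 0.31 (without GF1) to 0.72 (without CON4). Hba-a1 ran from 0.082 (without CON3) to 0.49 (without CON2), and Hbb-bs from -0.28 (without CON4) to -0.072 (without CON2). No such fit called a member, and the lowest adjusted p was 0.120, for Hbb-bt without GF2.

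The question of the second comparison is what remained different in mice colonized after weaning. None of the 4 members tested was called in exGF against CON, beside 11 of 15813 genes or 0.0696%, while 1 member and 843 genes had an unadjusted p under 0.05. DESeq2 and limma-voom gave no call here as well. Hbb-bs had a log2 fold change of -0.63 (SE 0.21, adjusted p = 0.698), with GFR1, GFR2 and GFR3 below all CON libraries and GFR4 within their range. Without GFR1 and GFR2, a fit added after the data had been seen, its value was -0.28 (adjusted p = 0.9996). Hba-a1 had -0.17 (SE 0.29, adjusted p = 0.989), Hbb-bt 0.06 (SE 0.25, adjusted p = 0.997) and Alas2 -0.01 (SE 0.25, adjusted p = 0.999). The sign of each of these 3 values depended on single libraries. The median over the 4 members was -0.09, beside -0.0065 over all genes tested. Without GFR1 and GFR2, Hbb-bt stood at 0.48, Hba-a1 at 0.28 and Alas2 at 0.17, and none was called.

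Set against GF directly, exGF libraries had lower fitted values for all 4 members tested, and none was called. In this comparison 0 of 15569 genes passed (0%), in edgeR's quasi-likelihood test, and 2 members and 1035 genes had an unadjusted p under 0.05. DESeq2 and limma-voom called no member. Alas2 had a log2 fold change of -0.51 (SE 0.23, adjusted p = 0.739) and Hbb-bs -0.42 (SE 0.18, adjusted p = 0.739). Hbb-bt had -0.50 (SE 0.30, adjusted p = 0.762) and Hba-a1 -0.41 (SE 0.24, adjusted p = 0.759). The median over the 4 members was -0.46, where the median over all genes tested was -0.0047. The values without GFR1 and GFR2 were -0.34 for Alas2, -0.08 for Hbb-bs, -0.09 for Hbb-bt and 0.03 for Hba-a1. The comparisons share libraries, so their values are not independent. SEs ran from 0.12 to 0.30 on the log2 scale, and no member passed after adjustment over all genes tested. Members under the unadjusted threshold of 0.05 were Hbb-bt (GF against CON), Hbb-bs (exGF against CON), and Alas2 and Hbb-bs (exGF against GF). In the exact permutation test, their unadjusted p was 0.143, 0.0857, 0.0857 and 0.0571 in that order, so none was under 0.05 there.

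**Figure D4:**
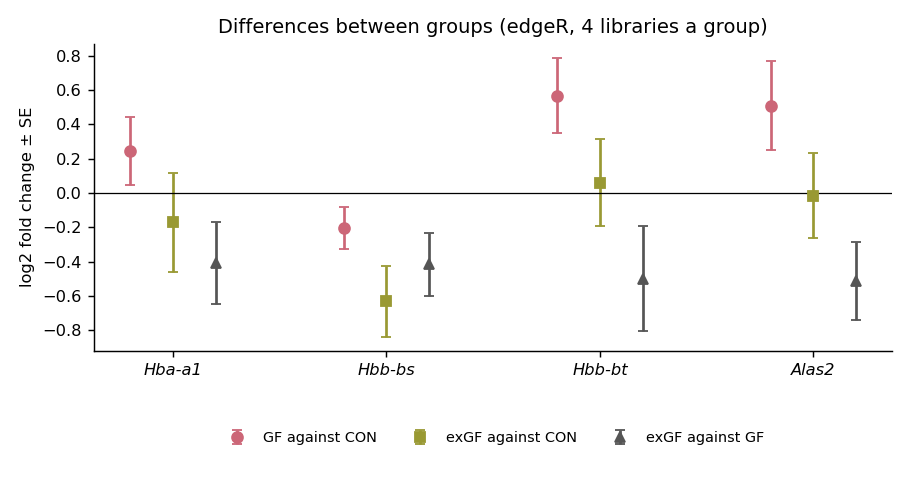
Log2 fold change of each member tested, with its SE as the bar, for GF against CON, exGF against CON and exGF against GF (edgeR, 4 libraries a group). No value passed an adjusted p of 0.1. All 4 values of exGF against GF lie below 0, and those of exGF against CON lie between -0.17 and 0.06 except for Hbb-bs at -0.63.

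Other genes of the globin clusters had few counts or none. Of 7 embryonic, theta-like and pseudogene members in the table, 4 were at 0 in every library (Hbb-bh0, Hbb-bh1, Hbb-bh2 and Hba-x), and Hbb-y had at most 2 counts in any library. None passed the filter on low counts. Hbq1b, a theta-like alpha globin, had 9, 14, 15 and 13 counts in CON, 0, 0, 6 and 1 in GF, and 0, 7, 2 and 8 in exGF, so every CON library was above every GF and exGF library in counts. Hbq1a, its neighbouring copy, had 1 to 4 counts in CON, 0 to 9 in GF and 8 to 17 in exGF. Of the 31-base words of Hbq1b, 35.7% occur in Hbq1a, so the division of reads between both is uncertain. Their levels were chosen for mention after they had been seen, and neither was tested. The share of all genes separated between groups like Hbq1b was not computed.

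The globins of other tissues were measured beside them. Neuroglobin (Ngb), an oxygen-binding globin of neurons, stood at 3.51 to 4.56 CPM in CON and 0.892 to 3.27 in GF, and 1.53 to 3.47 in exGF, so all CON libraries were above all others. The margin to exGF was thin, with 103 counts in CON3 and 102 in GFR4. The share of all genes separated in this way was not computed. Its log2 fold change was -0.91 in GF against CON (SE 0.28, adjusted p = 0.330) and -0.61 in exGF against CON (SE 0.23, adjusted p = 0.801), and neither was called. GF1, the shallowest library and the one with the highest Hbb-bt and Alas2, had the lowest Ngb. Cytoglobin (Cygb), found in fibroblast-like and some neuronal cells, averaged 53.3 CPM and was not called in any comparison.

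Most transcripts that mark developing or young red cells had few counts or none. Of 17 erythroid genes in the table, 2 (Gata1, the erythroid master regulator, and Rhag, a blood group glycoprotein) were at 0 in every library, and 9 had at most 3 counts in every library. Slc4a1, the anion exchanger of the red cell membrane, had 0 to 12 counts, and Klf1, the erythroid activator of beta globin, 1 to 11 counts. Only Bpgm (66.7 CPM on average) and Ermap (0.545 CPM) passed the filter in the comparisons, and neither was called. Bpgm, bisphosphoglycerate mutase, also serves cells other than red cells. Without Bpgm, a choice made after the values were seen, the remaining 16 genes summed to 1.19 to 1.64 CPM in CON and 0.966 to 1.92 in GF, and 1.20 to 1.53 in exGF. GFR1 and GFR2, the libraries of the lowest globin level, lay within the range of the other libraries there. This sum leans on Ermap, which gave 0.911 of the 1.20 CPM in GFR1 and 0.561 of the 1.34 CPM in GFR2. Slc4a1 had 0 counts in GFR1 and in GF1, and 5 in GFR2. Whether the erythroid genes other than Ermap follow the globin level was not tested. Beyond the globins and Alas2, the defining red cell markers gave little signal in this tissue.

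The remaining genes of haem synthesis, which all cells need, were expressed in every library. All 11 genes of the list were tested and 0 were called in any comparison, while an unadjusted p under 0.05 was reached by 2, 1 and 0 of them in GF against CON, exGF against CON and exGF against GF. Alas1, the housekeeping partner of Alas2, averaged 66.4 CPM and had a log2 fold change of 0.18 both in GF against CON (SE 0.08, adjusted p = 0.565) and in exGF against CON (SE 0.08, adjusted p = 0.924). Fech, the ferrochelatase that places iron into haem, averaged 47.9 CPM. Of 12 genes of haem and iron handling, 10 were tested and 0 called in each comparison. The ferritin chains Fth1 and Ftl1, which store iron, led this list at 1560 and 235 CPM.

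Genes of other blood cells were set beside the globins. The 9 neutrophil genes summed to 2.13 to 4.52 CPM in CON and 0.591 to 1.25 in GF, and 0.907 to 4.45 in exGF, so that every GF library lay below every CON library, while the members' summed level overlapped between these groups (116.4 to 194.3 CPM in CON and 137.4 to 161.3 in GF). Of the single neutrophil genes, 4 were lower in every GF library than in every CON library and 5 overlapped. Their counts were low, and the share of all genes separated in this way was not computed, so these numbers are a description only. Only 2 neutrophil genes passed the filter in GF against CON and 0 were called, with a median log2 fold change of -1.71. S100a9, a calcium-binding protein abundant in neutrophils, had a log2 fold change of -1.66 (SE 0.54, adjusted p = 0.358) at a mean of 0.730 CPM. Its partner S100a8 averaged 0.492 CPM and did not pass the filter there. Among monocyte genes Ccr2, a chemokine receptor, had -1.06 (SE 0.40, adjusted p = 0.439), and Ly6c2 averaged 0.187 CPM. The neutrophil genes tested and Ccr2 were scarce and passed the filter through the CON libraries, where they were higher. Their fold changes and the neutrophil median therefore lean towards lower in GF and are a description only. The 14 lymphocyte genes summed to 15.0 to 31.3 CPM in CON and 12.5 to 21.3 in GF, and 14.5 to 46.6 in exGF, with 0 called of 4 tested in GF against CON, and Ighm, the heavy chain of IgM, led them at 19.9 CPM before Lck, a T cell kinase, at 1.83 CPM. Of the 9 platelet genes 7 were tested in that comparison and 0 called, and their sum ran from 19.1 to 26.9 CPM over all libraries, led by the receptor chains Gp1bb (10.6 CPM) and Itgb3 (6.002 CPM).

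**Figure D5:**
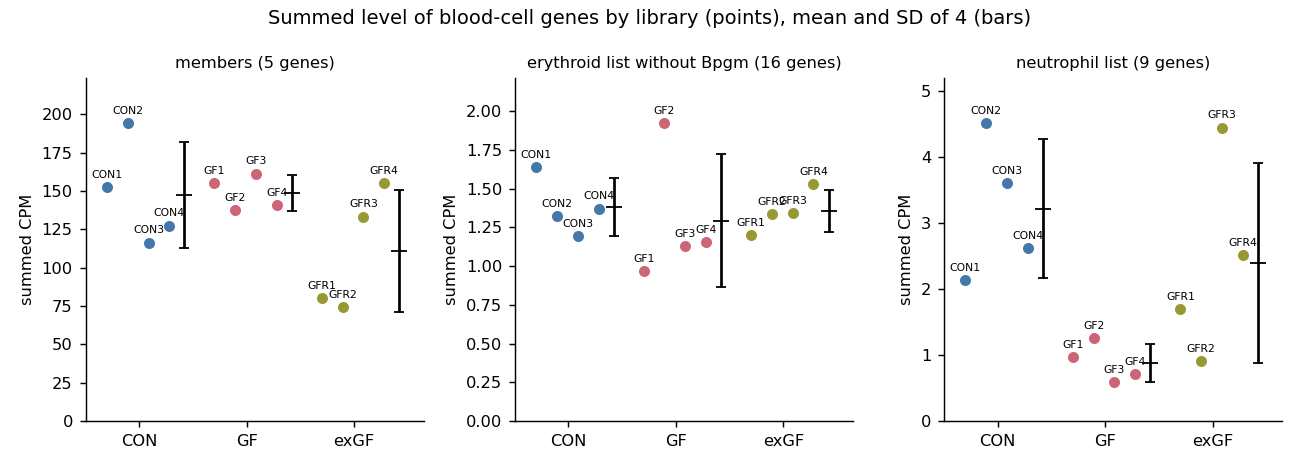
Summed CPM of the 5 members, of the 16 erythroid genes other than Bpgm and of the 9 neutrophil genes in each library, on linear axes starting at 0. Points are libraries and bars the mean with the SD of the 4 libraries of a group. The sum of the neutrophil genes is lower in each of the 4 GF libraries than in any CON library, while the members' sums overlap between CON and GF and are lowest in GFR1 and GFR2.

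Vessels and coverings of the brain were compared in the same way, since blood reaches a sample with them. All 13 endothelial genes were tested and 0 called in any comparison, with sums of 397.5 to 488.4 CPM over the 12 libraries, led by the glucose transporter Slc2a1 (105.9 CPM) and the VEGF receptor Flt1 (93.6 CPM). The mural genes of vessel walls, 8 of 8 tested, gave 0 calls, with sums of 253.4 to 306.4 CPM, led by Rgs5 (116.0 CPM) and Vtn (74.8 CPM). In contrast, 2 of 7 meningeal genes were called, both lower in GF than in CON. Slc6a13, a GABA transporter of the meninges, fell by 0.94 on the log2 scale (SE 0.13, adjusted p = 0.0120), and Col1a2, a collagen chain of fibroblasts, fell by 0.69 (SE 0.11, adjusted p = 0.0168). The median over all 7 was -0.53, and the most abundant of them, the growth factor Igf2 at 78.4 CPM, was not called. The 7 genes summed to 167.8 to 232.6 CPM in CON and 109.8 to 149.9 in GF, and 126.9 to 170.8 in exGF. GF and CON did not overlap in this sum, while their globin levels did, and the part of meningeal content in the globin values was not tested. Of the single meningeal genes, 4 were lower in every GF library than in every CON library and 3 overlapped. Choroid plexus genes, led by Kl (2.80 CPM) and Ttr (1.71 CPM), summed to 15.3 CPM in GF1 and to at most 7.91 CPM elsewhere. The 9 genes of cortical neurons, which define the labelled tissue, were all present, led by the synaptic genes Snap25 (3071 CPM) and Syt1 (2144 CPM). Their sums were 6640 to 7611 CPM in CON and 7748 to 8845 CPM in GF, so these groups did not overlap, and 7305 to 8818 CPM in exGF. Snap25 and Syt1 weigh most in these sums. Of the single neuronal genes, 1 was higher in every GF library than in every CON library and 8 overlapped. The share of all genes separated in this way was not computed. All 9 had fitted values above 0 in GF against CON, with a median of 0.14, and 0 were called. Their part in the globin values was not tested.

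To find genes whose pattern across libraries was most like that of the globins, the mean log2 CPM of Hba-a1, Hbb-bs and Hbb-bt was taken as the globin level. It ran from 4.02 in GFR2 and 4.03 in GFR1 to 5.23 in GF1. This level weighs the scarce Hbb-bt like the abundant chains. By the summed CPM of the members, CON2 was highest at 194.3, beside 155.4 in GF1. Of 16028 other genes, the 10 with the highest Pearson r over the 12 libraries were A2ml1 (0.93), a gene known only by its ID (ENSMUSG00000091580, 0.92), Srm (0.92), Gstt1 (0.91), Sh3bgrl3 (0.89), Bcl2l1 (0.88), Wfdc18 (0.88), Fadd (0.87), Ucp2 (0.87) and Bola1 (0.86). Without GFR1 and GFR2 their r was 0.64 to 0.85. These are the extremes of many genes and of 12 points that share a scaling, and 12.5% of all genes had r above 0.5, so they are given as a description with no test. Alas2, at r = 0.57, ranked 1359. The lists were set beside the globin level in the same way, for their genes that passed the filter over 12 libraries. The 2 erythroid genes had r of -0.36 and 0.62, the 2 globins of other tissues 0.03 and 0.63, and the 1 blood monocyte gene -0.335. Platelet genes (7) had r of -0.63 to 0.72 with a median of 0.30, and choroid plexus genes (4) 0.06 to 0.64 with a median of 0.40. Haem synthesis genes (11) had -0.37 to 0.71 with a median of 0.21, and genes of haem and iron handling (11) -0.54 to 0.72 with a median of 0.22. Mural genes (8) had a median of 0.22 and lymphocyte genes (4) 0.15, while endothelial genes (13) had -0.12, neutrophil genes (4) -0.06, meningeal genes (7) 0.03 and cortical neuron genes (9) -0.23.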

How the data were processed

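Per the labels and the study's methods, paired reads from PFC RNA were trimmed with Trimmomatic 0.32, aligned to GRCm38 with STAR and counted on Ensembl genes with HTSeq 0.6.0, with only uniquely aligned pairs counted and strand ignored. The authors deposited raw counts for 41388 genes and 12 libraries, 4 per group, without normalization. The STAR version differs between the labels and the methods. Columns named GFR were taken as the exGF libraries, as no other samples remain for them, and were not matched to single samples. Rows that name no gene were left out. They held 4.57% to 7.31% of all pairs in the table for those outside genes, 1.10% to 1.32% for ambiguous ones and 13.0% to 19.2% for multiply aligned ones.

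Counts on genes ran from 13280926 (GF1) to 29134760 (CON3). For each pair of groups, genes were filtered with filterByExpr and tested with edgeR 4.0.16 (TMM, quasi-likelihood, Benjamini-Hochberg, called at adjusted p under 0.1) in R 4.3.3. Levels are CPM scaled by TMM over 12 libraries. Correlations used log2 CPM with a prior count of 1 and 100000 permutations. The tests were checked on simulated data. Replicates are separate pools, so p-values measure the spread between pools. Names, coordinates and lengths came from GENCODE (GRCm38), with 40254 of 41388 genes matched, and promoters from RefSeq. No protein sequence was used here.

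Members and lists were chosen with earlier results of these data known. Genes named were the 5 members, the 2 of highest mean CPM and every called gene of each list, and the 10 most like the globin level. Other genes were named after their values were seen (embryonic globins, Gata1, Rhag, Slc4a1, Klf1, Apex2). Alternatives were RLE and upper-quartile normalization, other filters, DESeq2 1.42.0, limma 3.58.1 voom, an exact permutation test, a threshold of 0.05, library sizes without members, a replicate block and each library left out.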

Additional observations from a re-analysis of the deposited data

How the results depend on the processing

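The count of members called was 0 in all 63 alternatives of the 3 comparisons, those with each library left out included. Of the 518 alternatives of single values, 492 kept direction and call and 17 turned in sign. All that turned were values not called, being fold changes in comparisons with exGF and 2 correlations. In exGF against CON, Hbb-bt had a log2 fold change of -0.017 by limma-voom and -0.053 in the exact permutation test, and Alas2 0.032 and 0.015. With 1 library left out, values in exGF against CON ran from -0.38 to 0.077 for Hba-a1, from -0.28 to 0.22 for Hbb-bt and from -0.16 to 0.19 for Alas2. Without GFR1 and GFR2 together, a choice made after the data had been seen, exGF against CON gave 0.48 for Hbb-bt, 0.28 for Hba-a1 and 0.17 for Alas2, and exGF against GF gave 0.028 for Hba-a1. In that setting r was -0.33 between Hbb-bs and Hbb-bt and -0.36 between Hbb-bs and Alas2, and no correlation between members passed an adjusted p of 0.05, where 3 had passed over 12 libraries. The cause was not tested. Across alternatives the adjusted p of Hbb-bt in GF against CON ran from 0.120 (without GF2) to 0.724, and that of Hbb-bs in exGF against CON from 0.185 (no filter on low counts) to 0.9999. Ngb was called in GF against CON without the filter (-0.93, adjusted p = 0.0901) and without GF2 (-1.28, adjusted p = 0.0975), and Col1a2 in exGF against CON by DESeq2 on both groups (-0.35) and on all libraries (-0.36). Slc6a13 and Col1a2 kept their call in GF against CON except in the exact permutation test across all genes (-0.93 and -0.69, adjusted p = 0.561 for both), where 4 against 4 libraries allow no p below 0.0286.

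Replicate numbers are shared by CON and GF libraries, but same-numbered libraries did not deviate together (correlations of -0.05 to 0.03). With the replicate block, 0 members were called, Hbb-bt had 0.52 (adjusted p = 0.630), and 51 genes passed in place of 39. Other scalings moved the median of all genes by at most 0.014. Few counts limit Alas2 and Hbb-bt, where counting alone gives a coefficient of variation of about 12% and 9%.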
